A study of Mus musculus with 10 samples.

Results

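The Ikaros family consists of 5 zinc finger transcription factor genes, Ikzf1 to Ikzf5, which encode Ikaros, Helios, Aiolos, Eos and Pegasus. They were chosen by gene symbol, and all 5 were found among the 17493 genes of the deposited expression table. The table came from RNA sequencing of mouse Th17 cells, helper T cells that make IL-17, in 2 groups of 2 libraries. The TMP269 group had been exposed to TMP269, a small-molecule inhibitor of class IIa histone deacetylases, and the DMSO group was its control, whose columns the authors headed WT. Both groups were splenic CD4 T cells of C57BL/6 mice. Naive cells had been activated through CD3 and CD28 with 20 ng/mL IL-6 and 2.5 ng/mL TGF-beta and kept for 48 to 72 h. The labels give neither the dose of TMP269 nor how long cells were exposed, and they do not tie the replicates to animals or cultures. Every p-value here therefore measures the spread between these libraries, which may be technical.

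Ikaros family proteins bind DNA through zinc fingers near the amino terminus and pair with each other through a second set of fingers at the carboxyl terminus, so that members can form mixed dimers. They recruit the NuRD complex, which joins a nucleosome remodeller to histone deacetylases, and can also recruit other corepressors. Ikaros and Aiolos are best known from lymphocyte development, Helios and Eos from regulatory T cells, and Aiolos has been reported in mouse Th17 cells as a silencer of Il2. Pegasus is the most divergent member and is found in many tissues.

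In cells with TMP269, Ikzf2, Ikzf4 and Ikzf3 were higher, and Ikzf1 and Ikzf5 did not pass the test. Of the 5 family genes, 3 were called higher and 0 lower, where 12.8% of all tested genes were called higher and 14.7% lower. A gene was called when its Benjamini-Hochberg adjusted p in limma, over all 12535 tested genes, was under 0.05. The median log2 fold change of the 5 was 0.27, beside 0.00 for all tested genes. The calls of Ikzf3 and Ikzf4 did not hold under every omission of 1 library, and the number of all genes called changed as well. Across these omissions the median log2 fold change of the 5 was 0.23 to 0.30.

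Values are given as normalised reads, the authors' read counts divided by 1 size factor per library. They are not divided by transcript length, so levels of different family genes are not ranked against each other. Counts belong to whole genes, and the splice forms of Ikaros, some of which lack DNA-binding fingers, could not be told apart. In such bulk libraries, a change in the share of cells that express a gene cannot be told apart from a change in its RNA per cell.

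Ikzf2, the gene of Helios, had the widest change of the 5. It stood at 501 and 519 normalised reads in TMP269 replicates 1 and 2, against 346 and 315 in DMSO replicates 1 and 2. Both TMP269 libraries lay above both DMSO libraries, and the gap between the groups was several times the spread within either. Groups that did not overlap, in one direction or the other, were seen for 66.6% of all tested genes. The groups averaged 509.9 ± 12.2 with TMP269 and 330.2 ± 21.7 with DMSO (SD, n = 2 each), a 1.54-fold rise (log2 fold change 0.63 ± 0.11 (SE), limma adjusted p = 0.00503). The 95% interval from limma ran from 1.29-fold to 1.84-fold, and 91.5% of tested genes had a lower log2 fold change. The call rested on 485 and 546 recovered reads with TMP269 and 384 and 261 with DMSO, whose counting SD alone was 4.28% to 6.19%. It was kept under each of the 14 alternatives tried, with adjusted p up to 0.0219.

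Ikzf4 encodes Eos, a partner of Foxp3 in gene silencing in regulatory T cells. It was at 1799 and 1622 normalised reads in the TMP269 libraries, against 1386 and 1190.5 in the DMSO libraries. The lower TMP269 library still lay above the higher DMSO library, although each pair was spread more widely than that of Ikzf2. Among all tested genes, 66.6% had groups that did not overlap. The means were 1711 ± 125 with TMP269 and 1288 ± 138 with DMSO (SD, n = 2 each), a 1.33-fold rise with a 95% interval of 1.14-fold to 1.56-fold (limma adjusted p = 0.0169). Omitting TMP269 replicate 1 ended the call (limma adjusted p = 0.0691), as did omitting DMSO replicate 2 (0.0840).

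Ikzf3, the gene of Aiolos, stood at 7104 and 6737 normalised reads with TMP269, against 5887 and 5617 with DMSO. The groups did not overlap, as was so for 66.6% of all tested genes. The rise was 1.203-fold, the smallest of the 3 that passed, with means of 6920.3 ± 259.6 in the TMP269 libraries and 5752 ± 191 in the DMSO libraries (SD, n = 2 each; limma adjusted p = 0.0356). Its 95% interval was 1.06-fold to 1.36-fold. This call was the least firm of the 3. It ended when TMP269 replicate 1 (limma adjusted p = 0.255), TMP269 replicate 2 (0.0958) or DMSO replicate 2 (0.137) was omitted, and with no filter on low values (0.0508).

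Ikzf1, which encodes Ikaros, the founding member, did not pass. It was at 9063 and 8902 normalised reads with TMP269 and at 9810.2 and 9909.6 with DMSO. Both TMP269 libraries lay below both DMSO libraries, an order in one direction or the other that 66.6% of all tested genes showed. The means were 8982 ± 113 with TMP269 and 9859.9 ± 70.3 with DMSO (SD, n = 2 each; log2 fold change -0.13 ± 0.08 (SE), limma adjusted p = 0.232). The 95% interval of the ratio, 0.805 to 1.03, includes no change and a fall of moderate size. With equal library totals the log2 fold change was -0.03, while the median of all tested genes moved to 0.10 on that scale.

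Ikzf5, the gene of Pegasus, was at 922 and 976 normalised reads with TMP269 and at 825 and 1009.5 with DMSO. The DMSO values enclosed both TMP269 values. The log2 fold change was 0.06 ± 0.11 (SE, limma adjusted p = 0.738), with a 95% interval of the ratio from 0.872 to 1.24. The direction turned without DMSO replicate 1 (log2 fold change -0.09). The DMSO pair had a coefficient of variation of 14.2%, against a counting SD of 3.46% at most in any library, so that spread was wider than counting error alone.

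**Figure D1:**
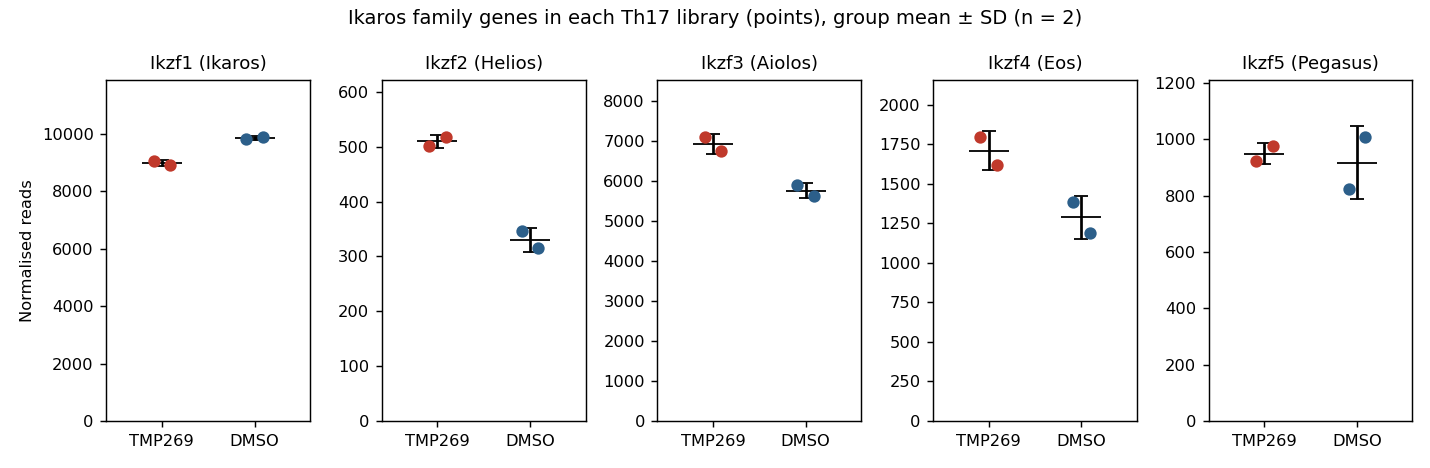
Normalised reads (vertical axes, each from 0) of the 5 Ikaros family genes in the TMP269 and DMSO libraries. Points are libraries, horizontal bars are group means and whiskers are SD (n = 2). Ikzf2, Ikzf3 and Ikzf4 are higher in both TMP269 libraries, Ikzf1 is slightly lower in both, and the groups of Ikzf5 overlap.

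The plot of fold changes shows the same 5 genes with each library left out in turn. Ikzf2 kept a log2 fold change of 0.56 to 0.69 across the 4 omissions. Ikzf4 ranged from 0.30 to 0.52 and Ikzf3 from 0.23 to 0.30. Without DMSO replicate 2, the values of Ikzf2 and Ikzf4 were the lowest of the 4, and that library also had the highest share of ribosomal RNA reads, 2.20%, whose part in these values was not tested.

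**Figure D2:**
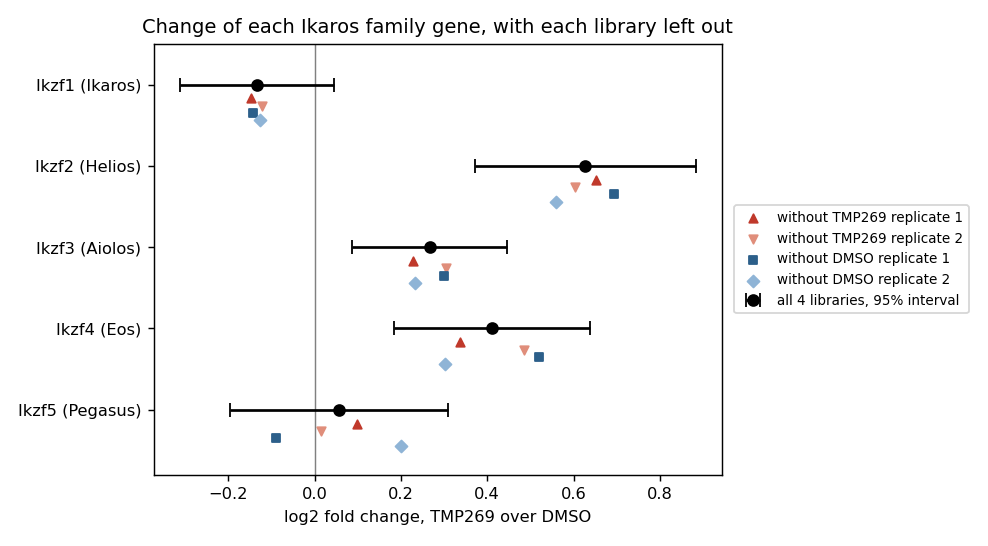
Log2 fold change of TMP269 over DMSO (horizontal axis) for each Ikaros family gene. Black points with bars are the estimate from all 4 libraries with its 95% interval, and coloured marks are the estimates with 1 library left out. The intervals of Ikzf2, Ikzf3 and Ikzf4 lie above 0, and the marks of Ikzf5 fall on both sides of 0.

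The make-up of family reads within a library does not depend on the scaling between libraries. Shares add up to the whole, so a rise in some members alone lowers the shares of the others. The shares, and the ratios below, restate the values above and are not separate results. Ikzf1 supplied 46.7% and 47.5% of the family's reads in the TMP269 libraries, against 53.7% and 54.9% in the DMSO libraries. The share of Ikzf3 was 36.6% and 35.9% with TMP269 and 32.3% and 31.1% with DMSO, so the 2 genes stood closer together in reads with the inhibitor. Ikzf4 supplied 9.28% and 8.65% with TMP269, against 7.59% and 6.60% with DMSO. For Ikzf2 the shares were 2.59% and 2.76% with TMP269 and 1.89% and 1.74% with DMSO. For these 4 genes the shares did not overlap between groups, whereas Ikzf5 had 4.76% and 5.21% with TMP269 between DMSO values of 4.52% and 5.60%. By normalised reads, too, 4 of the 5 genes had separate groups, where 66.6% of all tested genes did. The sum over the family was 19389 and 18756 normalised reads with TMP269 and 18254 and 18041 with DMSO, 5.10% higher on average.

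Set against Ikzf1 in the same library, there were 18.1 and 17.2 Ikzf1 reads for each Ikzf2 read with TMP269, against 28.4 and 31.5 with DMSO. The log2 ratio of Ikzf2 to Ikzf1 was higher with TMP269 by 0.76, that of Ikzf4 to Ikzf1 by 0.55 and that of Ikzf3 to Ikzf1 by 0.40. The ratio of Ikzf5 to Ikzf1 was higher by 0.19, with groups that overlapped. The groups of the other 3 ratios did not overlap, where for single genes 66.6% of all tested did not in normalised reads. With 2 libraries against 2, an exact permutation test, two-sided, cannot give a p below 0.333, and no other test of these ratios was run.

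**Figure D3:**
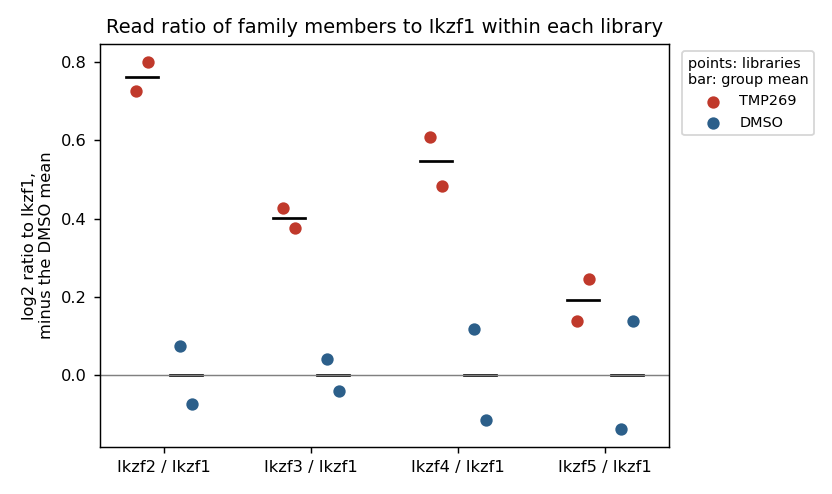
Log2 ratio of reads of Ikzf2, Ikzf3, Ikzf4 and Ikzf5 to reads of Ikzf1 in the same library, with the mean of the DMSO libraries set to 0 for each gene (vertical axis). Points are libraries and bars are group means, TMP269 in red and DMSO in blue. The TMP269 points stand above the DMSO points for Ikzf2, Ikzf3 and Ikzf4 and overlap them for Ikzf5.

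The family genes lie on chromosomes 1, 7, 10 and 11, with Ikzf1 and Ikzf3 both on chromosome 11 (GRCm38 annotation, used here for order only, since the authors' build was mm9). Of the neighbours nearest on each side, 7 were in the table. Fignl1, a AAA ATPase gene beside Ikzf1, fell to 0.746-fold (limma adjusted p = 0.00544), while Ikzf1 itself was not called. The neighbours of Ikzf3, Mien1 and Zpbp2, had log2 fold changes of 0.17 and 0.42, and neither passed (limma adjusted p = 0.238 and 0.178). Zpbp2 was read at only 71.3 and 73.1 normalised reads with TMP269 and 55.8 and 51.9 with DMSO. The neighbours of Ikzf4 moved apart, Suox by 0.26 and the ribosomal protein gene Rps26 by -0.27, and neither was called (limma adjusted p = 0.0897 and 0.0671). The neighbours of Ikzf5, 2310057M21Rik and Acadsb, were not called either (log2 fold change 0.01 and 0.10). The annotated span of Pstk, a kinase gene of selenocysteine synthesis, overlaps that of Ikzf5. Pstk fell to 0.632-fold, with 166 and 168 normalised reads with TMP269 against 234 and 300.3 with DMSO (limma adjusted p = 0.0166, but 0.111 without DMSO replicate 2). Whether counting used strand is not stated in the labels, so reads from the overlap of Pstk and Ikzf5 cannot be assigned with certainty. Annotated gene models also overlap Ikzf1, Ikzf3 and Ikzf4, and none of these models is in the table.

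Promoter windows from RefSeq (build GRCm38.p6, 250 bases before to 50 bases after an annotated start) were at hand for Ikzf1, with 2 starts, and for Ikzf5. None was at hand for Ikzf2, Ikzf3 or Ikzf4. Of these 3 windows, the first of Ikzf1 and that of Ikzf5 held the 5-letter core GCGTG bound by the aryl hydrocarbon receptor (AHR). The second of Ikzf1 held no match to it. The 2 windows with the core are shown. The first Ikzf1 window is chr11:11685675-11685974 on the plus strand and the Ikzf5 window is chr7:131410429-131410728 on the minus strand. Capitals mark matches on either strand to GCGTG and to the STAT motif TTCNNNGAA.
Ikzf1: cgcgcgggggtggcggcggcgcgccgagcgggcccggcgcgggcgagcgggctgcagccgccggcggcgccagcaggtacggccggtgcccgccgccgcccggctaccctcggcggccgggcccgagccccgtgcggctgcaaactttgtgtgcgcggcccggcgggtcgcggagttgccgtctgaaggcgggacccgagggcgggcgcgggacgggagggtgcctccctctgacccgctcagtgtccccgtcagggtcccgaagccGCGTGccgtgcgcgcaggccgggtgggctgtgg
Ikzf5: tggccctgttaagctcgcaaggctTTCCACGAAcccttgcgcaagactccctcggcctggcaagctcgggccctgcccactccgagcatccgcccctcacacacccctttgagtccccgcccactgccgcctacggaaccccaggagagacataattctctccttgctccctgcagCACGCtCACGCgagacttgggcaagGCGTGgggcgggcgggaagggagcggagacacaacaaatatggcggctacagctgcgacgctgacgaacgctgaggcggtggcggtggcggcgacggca

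The Ikzf1 window held 1 match to GCGTG and the Ikzf5 window held 3, a core found in 32.4% of all 32851 promoter windows of the table. Only the Ikzf5 window of these 2 held TTCNNNGAA, with 1 match, as did the second Ikzf1 window, and 8.30% of all windows held it. The Ikzf1 window was 81.3% G and C, more than 99.3% of all windows, and the Ikzf5 window 65.7%, more than 83.0%. The median of all windows was 52.7%. These windows held 52 and 27 CG pairs, against a median of 7. GCGTG contains CG, so 32.4% is not the share among windows of like make-up. The Ikaros core TGGGAA (25.6% of all windows), the AP-1 motif TGANTCA (7.81%), the RUNX motif TGTGGT (16.8%) and the MEF2 consensus (3.19%) were not in these windows. Neither Ikzf1 nor Ikzf5 was called, and a match in letters is not evidence of binding.

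Among genes reported to be repressed by Ikaros family factors in T cells or thymocytes, 2 of 7 rose and 1 fell, against 12.8% and 14.7% of all tested genes. Il2, the T cell growth factor gene that Aiolos is reported to silence, rose 3.39-fold, with 2103 and 2236 normalised reads with TMP269 against 559.7 and 731 with DMSO (limma adjusted p = 1.27e-04). Notch3, a Notch receptor gene, rose 4.43-fold, with 263 and 303 normalised reads against 72.9 and 54.3 (limma adjusted p = 3.15e-04). Il2 and Ikzf3 were both higher with TMP269. Dntt, which encodes terminal deoxynucleotidyl transferase of immature lymphocytes, fell to 0.273-fold (limma adjusted p = 0.00252). The other 4 did not pass, among them Tbx21, the Th1 factor gene (log2 fold change 0.22, limma adjusted p = 0.229, but 0.0121 without TMP269 replicate 2), and Dtx1, a Notch pathway gene (log2 fold change 0.20). The median of the list was 0.22.

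Genes reported to depend on Ikaros family factors in helper T cells went both ways. Of 13, 4 rose and 3 fell, where 12.8% of all tested genes rose and 14.7% fell, and the median log2 fold change was 0.00. The Th2 genes Il4 and Gata3 rose 1.49-fold and 1.47-fold, and the transcription factor gene Maf rose 1.48-fold. Il17a fell to 0.401-fold (750.4 and 786 normalised reads with TMP269, against 1888 and 1949 with DMSO) and the chemokine receptor gene Ccr6 to 0.444-fold. Ahr, the AHR gene, fell to 0.771-fold (limma adjusted p = 0.0393). The Ahr call ended without TMP269 replicate 1 (limma adjusted p = 0.246), and likewise without DMSO replicate 2 (0.166) and with equal library totals (0.0880). The Il4 call ended without TMP269 replicate 2 (limma adjusted p = 0.0782) and the Gata3 call without DMSO replicate 2 (0.0502).

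AHR and STAT3 are reported inducers of Aiolos in mouse Th17 cells. While Ahr was lower, in a call that did not hold under every setting, as given above, its target genes in this list were higher. Cyp1a1, a xenobiotic-metabolising enzyme, was at 2545 and 3481 normalised reads with TMP269, against 251 and 316 with DMSO, a 10.5-fold rise (limma adjusted p = 3.93e-05). Cyp1b1 rose 4.96-fold, the AHR repressor gene Ahrr 2.01-fold and Tiparp, a feedback enzyme, 1.66-fold. Stat3 was at 12281 and 11996 normalised reads with TMP269 and at 14280.3 and 13192 with DMSO and was not called (limma adjusted p = 0.160). In all, 4 of the 7 genes of this list rose and 1 fell, beside 12.8% and 14.7% of all tested genes. The 1 that fell was Ahr, which is also counted in the list of dependent genes.

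Among genes of the partners of Ikaros family proteins, NuRD subunits were called about as often as genes at large. Of 14 NuRD subunit genes, 1 rose and 3 fell (28.6% called, near the 27.5% of all tested genes), with a median log2 fold change of -0.17. Chd3, a remodelling ATPase, rose 1.29-fold, with a mean of 10430.3 ± 34.7 normalised reads with TMP269 against 8071 ± 365 with DMSO (SD, n = 2 each; limma adjusted p = 0.0112). The methyl-CpG-binding domain gene Mbd3 fell to 0.741-fold, Cdk2ap1 to 0.784-fold and the histone-binding subunit gene Rbbp7 to 0.782-fold. The call of Chd3 ended without TMP269 replicate 1, and that of Rbbp7 without TMP269 replicate 1, TMP269 replicate 2 or DMSO replicate 2. Over the 4 omissions their log2 fold changes were 0.32 to 0.42 and -0.39 to -0.32, near the 0.37 and -0.35 from all libraries. The call of Cdk2ap1 ended without TMP269 replicate 2 or DMSO replicate 2, while Mbd3 passed without any 1 of the 4 libraries. Among the other 5 corepressor and remodelling genes, Ctbp1 fell to 0.833-fold (limma adjusted p = 0.0391) and 4 did not pass, where 14.7% of all tested genes fell. The CRL4-cereblon ubiquitin ligase destroys Ikaros and Aiolos in human cells given thalidomide-like drugs. Of 5 of its genes, Rbx1 and Cul4a fell to 0.814-fold and 0.835-fold, where 14.7% of all tested genes fell. With equal library totals neither Ctbp1 (limma adjusted p = 0.125), Rbx1 (0.0755) nor Cul4a (0.209) was called, and 1 gene of the CRL4-cereblon list was called higher. On that scale the medians of the NuRD, corepressor and CRL4-cereblon lists were -0.06, 0.06 and -0.07, against -0.17, -0.04 and -0.18 with the authors' size factors, and 2 NuRD genes rose and 2 fell. Omitting TMP269 replicate 1, TMP269 replicate 2 or DMSO replicate 2 ended the calls of Ctbp1, Rbx1 and Cul4a, and each also lowered the number of all genes called. The Cul4a call ended without DMSO replicate 1 too. Over the 4 omissions the log2 fold change was -0.33 to -0.20 for Ctbp1, -0.34 to -0.25 for Rbx1 and -0.30 to -0.22 for Cul4a.

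**Figure D4:**
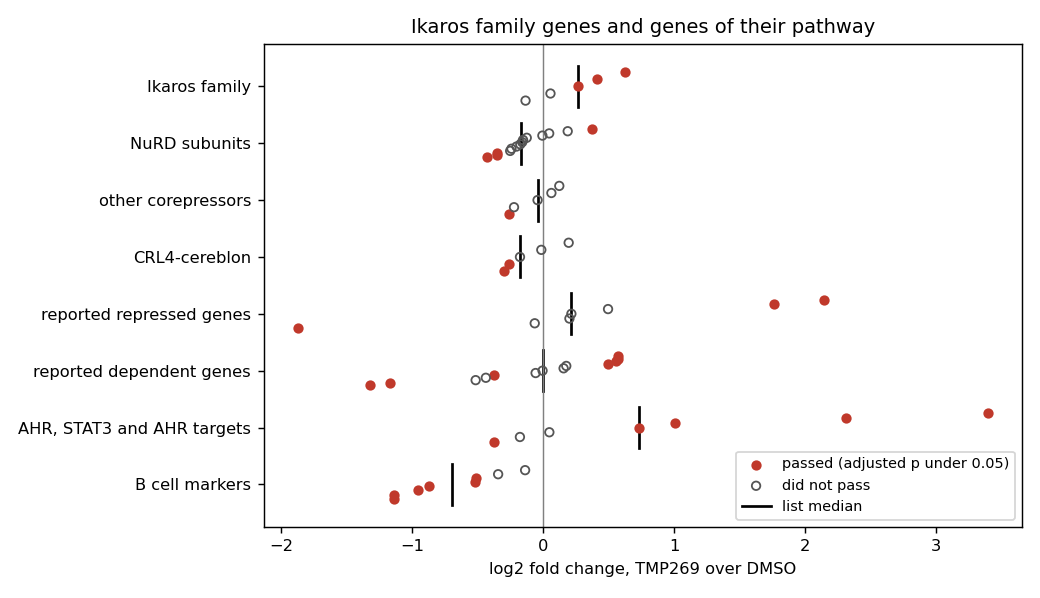
Log2 fold change of TMP269 over DMSO (horizontal axis) for each tested gene of the Ikaros family, its partners, genes reported to lie downstream, the AHR list and B cell markers. The AHR list holds Ahr, Arnt, Stat3 and AHR targets. Filled points passed the test, open points did not, and vertical bars are list medians. The Ikaros family, the reported repressed genes and the AHR list have medians above 0 (0.27, 0.22 and 0.73), while the B cell markers all lie below 0.

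Genes with the profile most like each member were sought over the 4 libraries, by the distance between log2 values centred on their mean. Among the 2 nearest to Ikzf2 was Rhoc, a small GTPase gene (distance 0.0404), which rose 1.52-fold. Nearest to Ikzf4 were Ddx17, an RNA helicase gene, and Rasal3, which rose 1.33-fold and 1.35-fold. Nearest to Ikzf3 were Phkg2 and the deubiquitinase gene Usp24, of which Usp24 was called (limma adjusted p = 0.0299). Nearest to Ikzf1 were Tnfsf10 and Dlgap5, and nearest to Ikzf5 were Zfp747 and Tmem234, none of which was called. A fold change close to that of the member follows from this choice and is not a separate result. With 4 libraries such likeness is common. Within a distance of 0.1 there were 43 genes for Ikzf2, 124 for Ikzf4, 314 for Ikzf3, 710 for Ikzf1 and 141 for Ikzf5. The calls of Usp24 and Ddx17 ended without TMP269 replicate 1 (limma adjusted p = 0.214 and 0.144) and, with that of Rasal3, without DMSO replicate 2 (0.123, 0.106 and 0.0553 for Usp24, Ddx17 and Rasal3). That of Usp24 also ended without TMP269 replicate 2 (0.0720).

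Markers of other cells that express Ikaros family genes were examined as well. B cells use Ikzf1 and Ikzf3, and 6 of 8 B cell markers fell and 0 rose, where 14.7% of all tested genes fell and 12.8% rose. Their summed level was 2637 to 2695 normalised reads with TMP269 and 4567 to 4657 with DMSO, and none of the 8 was at 0. Cd22, a B cell surface receptor gene, was at 421 and 369 normalised reads with TMP269, against 920.5 and 823 with DMSO (0.453-fold, limma adjusted p = 4.49e-04). Regulatory T cells use Ikzf2 and Ikzf4. Their 6 markers summed to 100667 to 102836 normalised reads with TMP269 and 96267 to 101310 with DMSO. Most of that was Il2ra, which activated T cells also express. Of these 6 markers of regulatory T cells, 2 rose and 1 fell, where 12.8% of all tested genes rose and 14.7% fell. Foxp3, their lineage factor gene, was at 441 and 450.2 normalised reads with TMP269 and 354.5 and 286 with DMSO (1.399-fold, limma adjusted p = 0.0272, but 0.149 without DMSO replicate 2 and 0.0577 without TMP269 replicate 2). Lrrc32, a TGF-beta docking receptor gene, also rose 1.399-fold, and Ctla4, an inhibitory receptor gene, fell to 0.742-fold. The Lrrc32 call ended without TMP269 replicate 2 (limma adjusted p = 0.0583) and the Ctla4 call without TMP269 replicate 1 (0.0588). The part of B cells or regulatory T cells in the Ikaros family values was not tested.

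Markers of T cells were abundant in all libraries, with 0 of 6 called, where 27.5% of all tested genes were called. Their summed level was 40812 to 42480 normalised reads with TMP269 and 37710 to 41528 with DMSO. Of 6 Th17 markers 1 rose and 3 fell, where 12.8% of all tested genes rose and 14.7% fell. The Th17 markers summed to 10954 to 12341 normalised reads with TMP269 and 18462 to 19606 with DMSO. Markers of CD8 T and NK cells summed to 422 to 549.9 normalised reads with TMP269 and 420.2 to 493 with DMSO, and those of myeloid cells to 57.9 to 73.1 with TMP269 and 42.2 to 44.1 with DMSO. Of the 4 CD8 T and NK cell markers and 3 myeloid markers with values high enough to be tested, of 6 listed for each, 0 were called. With 27.5% of all tested genes called, lists this short can hold 0 calls without differing from genes at large. The libraries held 20837231 and 23259102 recovered reads with TMP269 and 25321455 and 20007042 with DMSO. Ribosomal RNA reads of Rn45s made up 0.716% to 1.12% of the TMP269 libraries and 0.836% to 2.20% of the DMSO libraries, highest in DMSO replicate 2.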

How the data were processed

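Each of the 4 libraries had 1 column of normalised signal per gene in the deposited table. The submitters' processing notes name build mm9 and, without roles, DESeq2, HTSeq, TopHat2 2.1.0, Bowtie2 and CASAVA 1.4, of which some may belong to the 6 chromatin samples, which are not analysed here. Annotation, strand setting and the treatment of multi-mapping reads: not given in the sources used here. Whole reads were recovered by multiplying by a size factor of 0.967 and 1.05 for the TMP269 libraries and 1.11 and 0.829 for the DMSO libraries; 100% of values came out whole within 1e-06.

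Genes that reached a value of 10 in 2 or more libraries were tested in R 4.3.3 by limma 3.58.1, on log2(value + 1) and with a trended empirical Bayes step and no covariate, two-sided, so fold changes of low genes are understated. Intervals use limma's moderated spread, with 6.84 prior degrees of freedom. The count test of edgeR 4.0.16 on the recovered reads called 3406 genes, against 3448 in limma. The other alternatives were pseudocounts of 0.5 and 5, other filters, DESeq2 1.42.0, limma-voom, equal library totals, a replicate block and each library left out. Where an omission left a group with 1 library, limma took its spread from the other group. A call could then end although the fold change hardly moved, as for Chd3. The test was also tested on simulated data.

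Members, gene lists and tests were chosen with earlier results of these data known. The text names all 5 members, genes of the lists of reported targets and inducers, up to 3 called genes each way of other lists, neighbouring genes, and the 2 genes most alike to each member. Unnamed gene models were left out of that last choice, and some genes that the rule names are not reported here. The myeloid marker Adgre1 was found under its older symbol, Emr1.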

Additional observations from a re-analysis of the deposited data

How the results depend on the processing

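Across the 14 alternatives, Ikzf2 kept its direction and its call in all 14, with a log2 fold change of 0.56 to 0.73. Ikzf1 and Ikzf5 stayed uncalled in all 14, at -0.15 to -0.03 and -0.09 to 0.20. Ikzf4 kept its call in 12 and Ikzf3 in 10. The call of Ikzf3 was lost with no filter on low values (log2 fold change 0.27, limma adjusted p = 0.0508). With 1 library left out, the calls of Ikzf3 and Ikzf4 were not always kept, and the number of all genes called changed as well.

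With 1 library left out, the log2 fold change was -0.15 to -0.12 for Ikzf1, 0.56 to 0.69 for Ikzf2, 0.23 to 0.30 for Ikzf3, 0.30 to 0.52 for Ikzf4 and -0.089 to 0.20 for Ikzf5. It was -0.085 to 0.21 for Zfp747 and -0.11 to 0.20 for Tmem234, both uncalled. All genes called numbered 2078 to 3675, NuRD genes 2 to 6, other corepressor genes 0 to 1 and CRL4-cereblon genes 0 to 1. The lowest count over all genes was without DMSO replicate 2 and the next, 2287, without TMP269 replicate 1.

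With the replicate block, 6360 of the 12535 tested genes were called, against 3448 without it. Among them were 11 of 14 NuRD genes and 4 of 5 CRL4-cereblon genes. The family count stayed at 3 of 5 while that over all genes rose, so its margin over genes at large was narrower. Nothing in the labels pairs the libraries. The deviations of same-numbered libraries from their group means correlated at 0.371 across genes, and with 2 pairs this is not taken as a pairing. The other corepressor list had 0 genes called with no filter on low values and with equal library totals, with or without Rn45s. The CRL4-cereblon list, with 2 genes called lower in limma with all 4 libraries, had 1 called lower with no filter, edgeR, DESeq2 or limma-voom. With equal totals, with or without Rn45s, it had 1 called higher and 0 lower. Genes higher with TMP269 made up 67.3% of calls with equal library totals, against 46.5% with the authors' size factors. The causes were not tested. Counting error limits Ikzf2 most, the member with the fewest reads.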
